A study of Mus musculus with 28 samples.

Results

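The unfolded protein and heat shock response was described here through 41 genes, chosen by name as those rows of the count tables that carry one of the listed gene symbols, out of 35275 genes in each table. The genes were kept in separate lists by role. The endoplasmic reticulum (ER) list held 14 genes: Hspa5, Hsp90b1, Calr, Pdia4, Pdia6, Hyou1, Sdf2l1, Creld2, Manf, Dnajb9, Dnajc3, Herpud1, Edem1 and Xbp1. The ATF4 list held 6 genes: Atf4, Ddit3, Atf3, Trib3, Asns and Chac1. The cytosolic heat shock list held 11 genes: Hspa1a, Hspa1b, Hspa8, Hspa4, Hsp90aa1, Hsp90ab1, Hsph1, Dnaja1, Dnajb1, Bag3 and Stip1. The cytosolic chaperonin TRiC was represented by its 8 subunits, Tcp1, Cct2, Cct3, Cct4, Cct5, Cct6a, Cct7 and Cct8, and the mitochondrial chaperonin by Hspd1 and Hspe1. All 41 genes passed the filter on low counts in both experiments.

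Cells that accumulate unfolded protein in the ER switch on the unfolded protein response, in which the sensors IRE1, ATF6 and PERK raise the transcription factors XBP1, cleaved ATF6 and ATF4. XBP1 and ATF6 act mainly on ER chaperones and degradation factors, whereas ATF4 acts on amino acid synthesis, transport and the death-associated factor CHOP, the product of Ddit3. Unfolded protein in the cytosol releases the transcription factor HSF1 instead, which binds repeats of GAA and TTC and drives the cytosolic heat shock chaperones. Hepatocytes secrete most plasma proteins and therefore carry a large ER and high levels of its chaperones.

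The promoters of the ER members carry the sequences by which this response is usually recognized. Start-site windows of 250 bases before to 50 bases after the RefSeq start (GRCm38.p6) were at hand for 35 of the 41 genes, and Cct4, Hsp90aa1, Hsp90ab1, Hspa8, Hyou1 and Manf were not examined. Exact matches on either strand were sought for the ER stress element, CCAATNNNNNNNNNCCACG, which is found in 39 of 32851 windows of all genes (0.119%). It was present in 6 of the 12 ER members with a window: Calr, Creld2, Dnajc3, Hsp90b1, Hspa5 and Pdia6. The promoter of Hspa5, which encodes the ER chaperone BiP, is printed in full because Hspa5 is the standard reporter of this response. Its last 250 bases before the start site lie at chr2:34771840-34772089 on the plus strand, and the element is in capitals.
Hspa5: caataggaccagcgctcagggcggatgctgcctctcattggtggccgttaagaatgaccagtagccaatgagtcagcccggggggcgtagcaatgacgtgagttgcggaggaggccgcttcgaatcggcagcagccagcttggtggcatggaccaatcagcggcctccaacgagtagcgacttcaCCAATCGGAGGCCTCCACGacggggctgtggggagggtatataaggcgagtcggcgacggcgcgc
The same element, in capitals with 10 bases on each side, was at chr8:84847065-84847103 (plus strand) for Calr, chr15:88819510-88819548 (minus strand) for Creld2, chr14:118937817-118937855 (plus strand) for Dnajc3 and chr12:17266481-17266519 (plus strand) for Pdia6. Hsp90b1 held 2 matches, of which the nearer to the start is shown, at chr10:86705523-86705561 (plus strand).
Calr: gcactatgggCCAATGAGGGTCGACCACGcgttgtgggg
Creld2: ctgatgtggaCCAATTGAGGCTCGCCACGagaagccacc
Dnajc3: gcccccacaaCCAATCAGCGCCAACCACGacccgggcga
Pdia6: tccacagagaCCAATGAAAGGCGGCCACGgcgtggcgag
Hsp90b1: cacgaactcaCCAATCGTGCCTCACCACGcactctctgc

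The other elements were rarer among the members or commoner in the genome. The second form of the ER stress element, ATTGG and CCACG with any base between them, shares its CCACG end with the first and was found in 12 windows (0.0365%), among them that of Herpud1 at chr8:94386367-94386397 (plus strand). A heat shock element of 3 repeats, GAANNTTCNNGAA, was found in 198 windows (0.603%). Of the 8 heat shock members with a window it was present in Hsph1 alone, at chr5:149636280-149636308 (plus strand), and none of Dnajb1, Bag3 and Hspa1b held these exact letters within this window. Hspd1 and Hspe1 are read in opposite directions from a shared promoter, and their windows share a match at chr1:55088056-55088084 (plus strand), where matches on the opposite strands overlap. The ATF4 element TGATGNAA was found in 1304 windows (3.97%) and in 4 of the 6 ATF4 members, Asns, Atf3, Chac1 and Trib3, and also in Herpud1. It lay at chr6:7693214-7693243 (minus strand) for Asns and chr1:191183425-191183454 (plus strand) for Atf3. The matched letters are in capitals, and a match describes the sequence only.
Herpud1: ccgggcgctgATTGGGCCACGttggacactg
Hsph1: actgaggaGAACTTTCCAGAAtctgcagc
Hspe1: ccgttctaGAACCTTCCGGAAggccccgc
Asns: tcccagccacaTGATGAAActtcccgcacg
Atf3: cgcggacttggTGATGCAAgtgcgagaagg

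The study deleted Ptk2, the gene of focal adhesion kinase (FAK), from liver epithelium of FVB mice whose Ptk2 alleles were both floxed (FAKfl/fl), and sequenced RNA in 2 experiments of 16 and 12 libraries. In the first, young adult mice without DDC carried Alb-Cre (KO) or were littermates without it (WT), and whole liver and isolated hepatocytes were sequenced with 4 libraries in each of the groups tissue WT, tissue KO, hepatocyte WT and hepatocyte KO. In the second, all livers came from mice given 0.1% w/w DDC diet, a cholestatic toxin, for 4 to 8 weeks, and whole fibrotic liver was sequenced with 3 libraries per group. Bred WT lacked and Bred KO carried Alb-Cre, Virus WT were FAKfl/fl mice injected by tail vein with the empty vector AAV8-TBG-Null, and Virus KO were injected with AAV8-TBG-Cre. The albumin promoter deletes in hepatocytes and cholangiocytes from the fetal liver on, whereas the TBG promoter deletes in hepatocytes of the grown animal. No DDC group was without DDC, and the experiments were counted in separate tables, so that levels are set side by side across them without a test.

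Library totals were 11162678 to 19838668 counts in the baseline experiment and 15795289 to 20428773 in the DDC experiment. Ptk2 followed the labels, at 3.65 to 8.35 FPKM in every WT library and 0.907 to 3.06 in every KO library. The tissue and cell labels were borne out by marker genes, since the summed hepatocyte markers were 32600 to 47200 FPKM in all 16 baseline libraries, while summed macrophage markers were 73.1 to 107 FPKM in tissue and 8.01 to 31.3 FPKM in hepatocytes. Among the 6 cholangiocyte markers, Krt7 and Cftr were listed at 0 in all hepatocyte WT libraries and Krt7 in all hepatocyte KO libraries. The trend of expression with gene length also set libraries apart. Its rank correlation over genes was 0.29 and 0.27 in tissue WT 2 and 4 but -0.50 to -0.33 in the other tissue libraries. It was 0.12 to 0.44 in hepatocyte, 0.03 to 0.28 in Bred and -0.32 to -0.04 in Virus libraries. Log2 changes of all genes therefore followed gene length in several comparisons. Their rank correlations with length were 0.42 and 0.43 for hepatocytes against tissue in WT and KO. They were -0.24 and -0.29 for Virus against Bred in WT and KO, and -0.44 for tissue KO against WT. FPKM values are levels scaled to gene length and library total. Log2 changes, standard errors (SE) and Benjamini-Hochberg adjusted p-values are from edgeR's quasi-likelihood test over all genes tested, and a gene is called when its adjusted p is below 0.05. In whole tissue, fewer cells of a type and less RNA per cell cannot be told apart.

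Among the DDC livers, the module differed most often between the WT groups of the Bred and Virus methods. Compared with Bred WT, Virus WT livers had 26 of the 41 genes called higher and 0 called lower, while 16.4% of all 13955 genes tested were called in this comparison. The median log2 difference of the 41 genes was 0.78, against -0.02 for all genes, and 40 of the 41 were higher in sign. By list, 12 of 14 ER genes and 10 of 11 heat shock genes were called by edgeR, but 3 of 8 TRiC genes, 1 of the 2 mitochondrial genes and none of the 6 ATF4 genes, of which 3 had an unadjusted p below 0.05 and DESeq2 called 1, Chac1. DESeq2 called 30 of the 41 and 20.8% of all genes. By edgeR 32.5% of all genes had an unadjusted p below 0.05. Both groups kept Ptk2 (5.52 to 6.59 FPKM in Virus WT and 5.16 to 8.35 in Bred WT). They differed in injection and vector, and possibly in cohort and in time on DDC, which cannot be told apart. The paper mentions an extended DDC diet only for mice given either virus. For the sequenced livers the weeks on DDC are known only as a range shared by all groups.

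**Figure D1:**
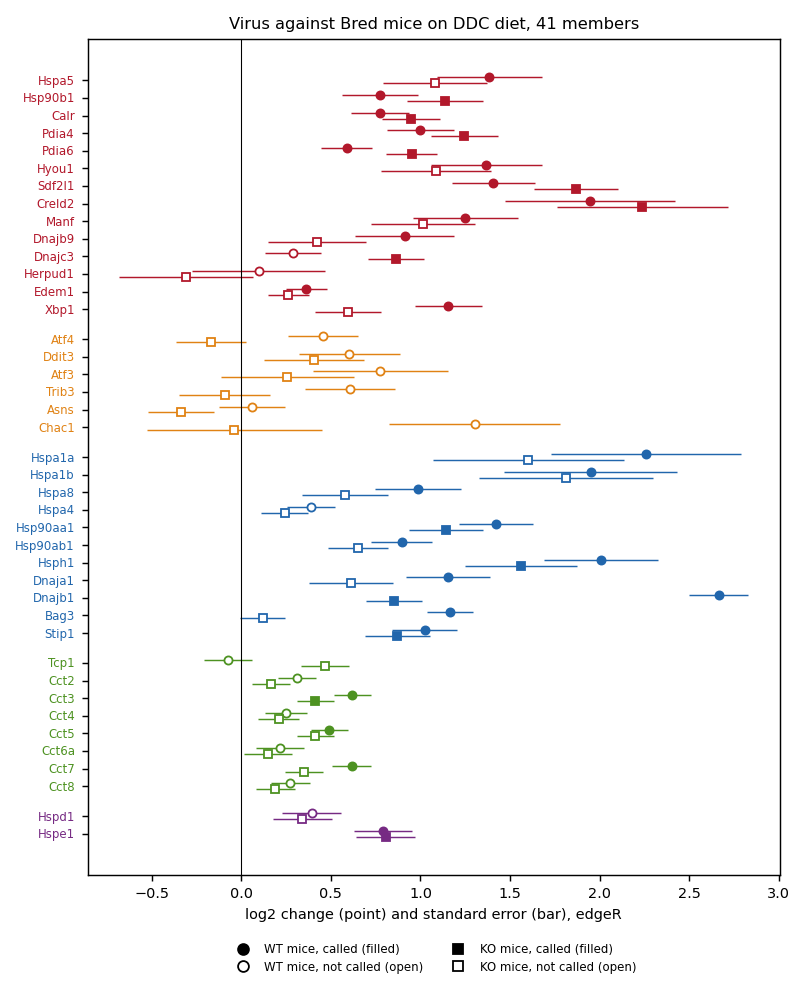
Log2 difference of Virus against Bred DDC livers for each of the 41 genes, on the horizontal axis, in WT mice (circles) and KO mice (squares), with bars for the standard error, genes grouped by list and filled symbols for an adjusted p below 0.05. In WT mice 40 of the 41 genes lie to the right of 0, and Dnajb1 lies farthest right at 2.66.

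Dnajb1, an Hsp40 co-chaperone that hands clients to Hsp70, showed the largest difference of the 41 genes. It lies on chromosome 8 (83608175 to 83611902, plus strand, mm10). Its level was 17.5, 23.7 and 16.3 FPKM in Bred WT livers. In Virus WT livers it was 115, 108 and 133 FPKM. The lowest Virus WT liver was thus above the highest Bred WT liver by a wide margin, and the log2 difference was 2.66 (SE 0.17, adjusted p = 8.9e-06), or 6.34-fold. Bag3, a nucleotide exchange factor that links Hsp70 to autophagy of damaged proteins, was at 29.8, 27.9 and 30.2 FPKM in Bred WT livers and at 74.6, 59.5 and 58 FPKM in Virus WT livers. These groups were also apart, with a log2 difference of 1.16 (SE 0.13, adjusted p = 0.000258).

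The core chaperones of the cytosol were higher in Virus WT livers as well. Hspa8, the constitutive Hsp70, was at 146, 306 and 218 FPKM in Bred WT livers and at 450, 414 and 434 FPKM in Virus WT livers. Bred WT 2 was the highest of its group for Hspa8, yet below every Virus WT liver, and the log2 difference was 0.99 (SE 0.24, adjusted p = 0.0164). The call of Hspa8 was lost without Bred WT 3 or without Virus WT 1, with an adjusted p of at most 0.0553. Hsph1, an Hsp110 exchange factor whose window held the heat shock element, was 4.03-fold higher, and Hsp90aa1, the inducible cytosolic Hsp90, 2.68-fold higher. Dnaja1, an Hsp40, was 2.23-fold higher, Stip1, the adaptor between Hsp70 and Hsp90, 2.03-fold and Hsp90ab1, the constitutive Hsp90, 1.86-fold. These genes and Dnajb1 and Bag3 were called under all 15 alternatives tried.

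The inducible Hsp70 genes Hspa1a and Hspa1b rested more on single livers. Hspa1b was at 6.96, 13.6 and 9.53 FPKM in Bred WT livers and at 69.5, 26 and 17.6 FPKM in Virus WT livers, so that Virus WT 1 stood far above the others of its group. Its log2 difference was 1.95 (adjusted p = 0.0173), and the call was lost without Virus WT 1, where the difference was 1.15, and without Bred WT 1 or Bred WT 3. Hspa1a differed by 2.26 on the log2 scale (adjusted p = 0.0136), and its call was lost without Virus WT 1 (1.36, adjusted p = 0.0679). The coding sequences of these paralogs are almost identical, so reads may be split between them and their separate values are uncertain. Hspa4, another Hsp110 gene, was the only member of the list not called by edgeR (log2 difference 0.39, adjusted p = 0.0651), and it was called by DESeq2 and by edgeR without Bred WT 1.

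**Figure D2:**
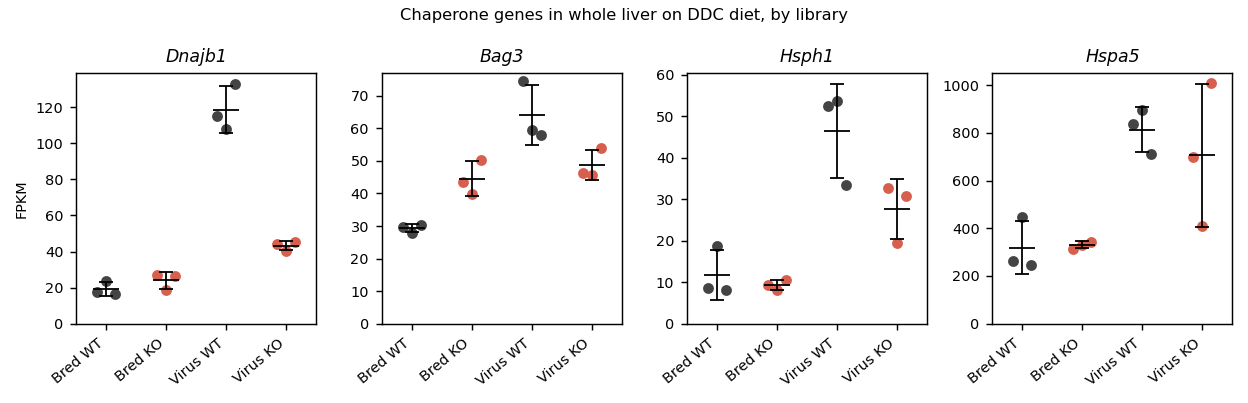
FPKM of Dnajb1, Bag3, Hsph1 and Hspa5 on the vertical axes in the 12 DDC livers, with a point per library and the mean with its SD (n = 3) in each group. For Dnajb1 the 3 Virus WT livers sit between 108 and 133 FPKM and the other 9 livers between 16.3 and 45.3.

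Of the 14 ER genes 12 were called higher in Virus WT livers. Hspa5 was at 261, 448 and 247 FPKM in Bred WT livers. In Virus WT livers it was at 836, 894 and 711 FPKM. Bred WT 2 was again the highest of its group, and the groups did not overlap (log2 difference 1.38, SE 0.29, adjusted p = 0.00803). Xbp1, the transcription factor of the IRE1 arm, was at 106, 110 and 90.4 FPKM in Bred WT livers and at 223, 281 and 161 FPKM in Virus WT livers (log2 difference 1.16, SE 0.19, adjusted p = 0.0021). Sdf2l1, a partner of BiP, was at 40.5, 84.7 and 59.9 FPKM in Bred WT livers and at 151, 177 and 152 FPKM in Virus WT livers (log2 difference 1.41, SE 0.23, adjusted p = 0.00229). Neither Xbp1 nor Sdf2l1 overlapped between the groups.

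The remaining called ER genes spanned folding, redox and degradation functions. Creld2, a disulfide isomerase-like ER protein, was 3.85-fold higher, Hyou1, an ER exchange factor, 2.58-fold and Manf, a secreted ER stress protein, 2.38-fold. Pdia4 and Pdia6, disulfide isomerases, were 2-fold and 1.5-fold higher, and the lectin chaperone Calr and the ER Hsp90 Hsp90b1 were each 1.71-fold higher. Dnajb9, an ER Hsp40, was 1.88-fold and Edem1, which marks glycoproteins for degradation, 1.29-fold higher. Calls of Creld2 and Manf were lost without Bred WT 3, of Pdia6 without Virus WT 2, and of Hsp90b1 without Bred WT 1, Bred WT 3 or Virus WT 2. Dnajb9 and Edem1 lost their calls without any one of Bred WT 2, Bred WT 3 and the 3 Virus WT livers. The exceptions were Dnajc3, an inhibitor of PERK (log2 difference 0.29, adjusted p = 0.225), and Herpud1, a component of ER-associated degradation (0.10, adjusted p = 0.887), although the windows of both hold an ER stress element.

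No gene of the ATF4 list passed edgeR's test, but DESeq2 called Chac1, which edgeR also called without Virus WT 3, as it did Atf4 without Bred WT 1. Ddit3 was at 3.15, 4.34 and 3.61 FPKM in Bred WT livers and at 7.02, 5.44 and 4 FPKM in Virus WT livers, and the groups overlapped (log2 difference 0.60, SE 0.28, adjusted p = 0.159). Chac1, a glutathione-degrading enzyme, was at 0.289, 0.658 and 0.96 FPKM in Bred WT livers and at 2.06, 1.76 and 0.767 FPKM in Virus WT livers, with a log2 difference of 1.30 (SE 0.48, adjusted p = 0.0801). Trib3, a pseudokinase that restrains CHOP signaling, was at 3.56, 4.69 and 6.25 FPKM in Bred WT livers and at 9.07, 7.06 and 5.36 FPKM in Virus WT livers (log2 difference 0.61, adjusted p = 0.117). All 3 genes were low and overlapped between the groups. Asns, asparagine synthetase, was at 0.06 on the log2 scale (SE 0.18, adjusted p = 0.853).

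TRiC, which folds actin and tubulin, had 3 calls. Cct3 was at 37.1, 38.8 and 41.9 FPKM in Bred WT livers and at 54.9, 61.3 and 60.6 FPKM in Virus WT livers (log2 difference 0.62, SE 0.10, adjusted p = 0.00252). Cct7 was at 50.8, 53.5 and 52.9 FPKM in Bred WT livers and at 82.6, 79.2 and 73.2 FPKM in Virus WT livers (log2 difference 0.62, SE 0.11, adjusted p = 0.0031). Both were apart between the groups, as was Cct5 at 1.41-fold, and the TRiC median log2 difference was 0.29 against 1.16 for the heat shock list. Tcp1, a subunit of the same ring, was at -0.07 on the log2 scale (SE 0.13). The mitochondrial co-chaperonin Hspe1 was at 129, 170 and 119 FPKM in Bred WT livers and at 224, 266 and 215 FPKM in Virus WT livers (log2 difference 0.79, SE 0.16, adjusted p = 0.00739). Its partner Hspd1 was at 188, 173 and 131 FPKM in Bred WT livers and at 198, 245 and 187 FPKM in Virus WT livers, which overlapped (0.39, SE 0.16, adjusted p = 0.118). Their gene models overlap at the shared promoter, where reads cannot be assigned without strand.

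The mean deviation of a list from its mean over the 12 livers, on the log2(CPM + 1) scale, showed each liver in turn. For the heat shock list it was 1.13, 0.94 and 0.59 in Virus WT livers and -0.63, -0.20 and -0.63 in Bred WT livers. For the ER list it was 0.65, 0.76 and 0.46 in Virus WT livers and -0.56, 0.01 and -0.52 in Bred WT livers. Bred WT 2 was thus the Bred WT liver nearest to the Virus WT livers in both lists, and no Bred WT liver reached the lowest Virus WT liver.

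**Figure D3:**
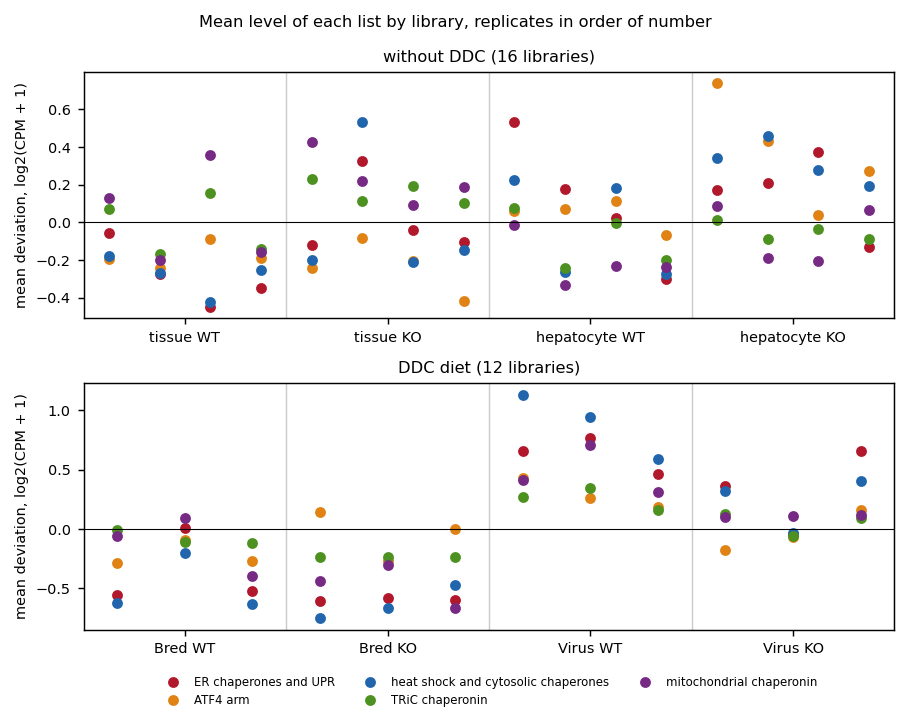
Mean deviation of each gene list from its mean over the libraries of an experiment, on the log2(CPM + 1) scale of the vertical axis, with a point per library and a colour per list. Among the DDC livers the heat shock list is highest in the 3 Virus WT livers, at 0.59 to 1.13.

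Other genes of these pathways were counted from lists of nonmembers. Of 29 other ER folding genes 6 were called higher and 0 lower in Virus WT livers, among them Selenok (0.71 on the log2 scale), Dnajb11, an ER Hsp40 (0.78), and Edem2 (0.45). Of 25 other ATF4 pathway genes tested 6 were called higher, among them the amino acid transporter chain Slc3a2 (0.66), the mTORC1 inhibitor Ddit4 (2.49) and the translation inhibitor Eif4ebp1 (0.56). Of 27 other heat shock genes 10 were called higher, among them the small heat shock proteins Hspb8 (1.60) and Hspb1 (2.33) and the Siah1 adaptor Cacybp (1.15). These shares compare with the 16.4% of all genes called.

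Other gene groups moved with this comparison. The summed level of 18 immediate early genes, which are transcribed within minutes of handling or injury, was 391 to 749 FPKM in Virus WT livers and 173 to 308 FPKM in Bred WT livers, and 10 of the 18 were called higher. Summed hepatocyte markers were 22300 to 26900 FPKM in Virus WT livers and 29400 to 30800 FPKM in Bred WT livers, with 0 of 8 called by edgeR and 1 at an unadjusted p below 0.05. Of the 6 macrophage markers 2 were called higher, and their sums were 287 to 327 FPKM in Virus WT livers and 208 to 314 FPKM in Bred WT livers. Endothelial markers summed to 59 to 65 FPKM in Virus WT livers and 47.6 to 53.6 FPKM in Bred WT livers. The part of these groups in the chaperone difference was not tested.

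The same contrast of methods among KO mice was added after the WT values had been seen, and it shares no library with the WT contrast. In Virus KO against Bred KO livers 13 of the 41 genes were called higher and 0 lower, with 3.02% of all genes called. The ER list carried 7 of these 13 calls, among them Sdf2l1 (log2 difference 1.87), Pdia6 (0.95) and Pdia4 (1.25), and the heat shock list 4, Hsp90aa1 (1.14), Dnajb1 (0.85), Hsph1 (1.56) and Stip1 (0.87). The median log2 difference was 0.98 for the ER list, 0.85 for the heat shock list and -0.07 for the ATF4 list, against 0.01 for all genes. The count fell to 3 without Bred KO 2 or without Virus KO 1 and to 4 without Virus KO 3, while the share of all genes called in these fits fell to 0.508%, 0.408% and 0.858%. None of the 13 differences changed sign over the alternatives, but their sizes moved to different degrees. On the log2 scale they ranged from 1.05 to 1.28 for Hsp90aa1 and from 0.88 to 1.04 for Calr. The ranges were wider for Hspe1, from 0.59 to 0.91, and for Creld2, from 1.85 to 2.54. Sdf2l1, Pdia4 and Pdia6 were called under all 15 alternatives, while the call of Dnajb1 was lost without Bred KO 2 or any one of the Virus KO livers. None of the 18 immediate early genes was called here by edgeR, with 3 at an unadjusted p below 0.05, and their sums were 357 to 432 FPKM in Virus KO livers and 422 to 482 FPKM in Bred KO livers. Cell type markers moved with this comparison. Their sums in Virus KO and Bred KO livers were 221 to 295 against 337 to 402 FPKM for stellate cells and fibroblasts, 251 to 300 against 318 to 450 FPKM for macrophages and 24900 to 26100 against 28400 to 41000 FPKM for hepatocytes. The sums were 5.93 to 6.47 against 3.81 to 4.54 FPKM for lymphocytes and 120 to 319 against 342 to 1330 FPKM for red blood cells. Their part in the result was not tested.

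Deletion of Ptk2 by virus was compared next, against the same Virus WT livers that entered the contrast with Bred WT. In Virus KO against Virus WT livers 2 of the 41 genes were called, both lower, with 2.66% of all genes called. Dnajb1 was at 44.4, 40.3 and 45.3 FPKM in Virus KO livers, below the 108 to 133 FPKM of Virus WT livers in every case. It fell by 1.62 on the log2 scale (SE 0.16, adjusted p = 0.000722), and this call was kept in all 15 alternatives. Bag3 was at 46.3, 45.7 and 53.9 FPKM in Virus KO livers, below the lowest Virus WT liver at 58, and fell by 0.56 (SE 0.13, adjusted p = 0.0345). The call of Bag3 was lost without Virus WT 1, Virus WT 2 or any of the 3 Virus KO livers, with an adjusted p of at most 0.149, in fits that called 0.451% to 1.21% of all genes.

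The other 39 members did not pass edgeR's test, whereas DESeq2 called 7 of the 41 lower, adding Cct3, Dnaja1, Dnajb9, Edem1 and Hsph1, with 6.64% of all genes called. By edgeR 17 of the 41 had an unadjusted p below 0.05, beside 18.7% of all genes. On the TMM scale the median log2 change was -0.33 against 0.01 for all genes. In sign 39 of the 41 genes were lower in Virus KO livers. These signs depended on the scaling, since by mean FPKM 32 were lower and 9 higher, among them Hsp90b1, Calr, Pdia4, Pdia6, Sdf2l1 and Dnajc3 of the ER list. Hspa8 was at 427, 291 and 398 FPKM in Virus KO livers against 414 to 450 in Virus WT livers, and Hspa5 was at 698, 408 and 1010 FPKM against 711 to 894. Virus KO 2 was the lowest and Virus KO 3 the highest liver of the group for Hspa5, which overlapped the WT range, and in FPKM Hspa8 overlapped through Virus KO 1. Of the other pathway genes, Ddit4 fell by 2.21 on the log2 scale (adjusted p = 0.0354) and Hspb8 by 0.95 (adjusted p = 0.0228), whereas 0 of 29 other ER genes were called by edgeR, with 5 at an unadjusted p below 0.05. Of the 18 immediate early genes 5 were called lower, and their sums were 357 to 432 FPKM in Virus KO livers against 391 to 749 FPKM in Virus WT livers. Stellate cell and fibroblast markers summed to 221 to 295 FPKM against 151 to 198 FPKM, and lymphocyte markers to 5.93 to 6.47 FPKM against 3.9 to 5.15 FPKM. Their part in the result was not tested.

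In Bred KO against Bred WT livers 2 of the 41 genes were called, a share of 4.88% beside 6.25% of all genes, with Bag3 higher and Dnajc3 lower. Bag3 was at 43.5, 39.9 and 50.3 FPKM in Bred KO livers, above the 27.9 to 30.2 FPKM of Bred WT livers in every case. It was higher by 0.48 on the log2 scale (SE 0.13, adjusted p = 0.0421). Dnajc3 was at 63.7, 54.6 and 45 FPKM in Bred WT livers and at 42.2, 35.7 and 35.4 FPKM in Bred KO livers, and it fell by 0.65 (SE 0.16, adjusted p = 0.0315). The highest Bred KO liver was just below the lowest Bred WT liver for Dnajc3.

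These calls of the Bred comparison were fragile. With the replicate number as a block, which pairs the Bred livers, Bag3 (adjusted p = 0.0386), Dnajc3 (adjusted p = 0.0222) and Pdia6 (adjusted p = 0.0404) were called. Pdia6 was at 172, 164 and 184 FPKM in Bred WT livers and at 158, 99.9 and 151 FPKM in Bred KO livers, with an adjusted p of 0.0623 without the block. No member was called by edgeR without Bred KO 2, Bred KO 3, Bred WT 1 or Bred WT 2, in fits that called 1.75% to 5.46% of all genes. With Bred WT 3 left out 1 was called, beside 5.66% of all genes. With the block 12.4% of all genes were called. Dnajb1 was at 26.8, 18.5 and 26.7 FPKM in Bred KO livers, overlapping Bred WT (log2 change 0.19, adjusted p = 0.48). Hspa5 was at 315, 331 and 344 FPKM in Bred KO livers and Hspa8 at 204, 273 and 259 FPKM, within the Bred WT range in every case. Of the other ER genes 3 of 29 were called, all lower, among them the signal peptidase subunit Sec11c (-0.80) and the oxidase Ero1lb (-0.91). Stellate cell and fibroblast markers moved with this comparison, with sums of 337 to 402 FPKM in Bred KO livers and 143 to 222 FPKM in Bred WT livers, as did immediate early genes, with 5 of 18 called higher. Macrophage markers summed to 318 to 450 against 208 to 314 FPKM, and endothelial markers to 57.7 to 63.5 against 47.6 to 53.6 FPKM. Sums of hepatocyte, cholangiocyte, lymphocyte and red blood cell markers overlapped. The part of these groups in the result was not tested.

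The difference between the genotype effects of the Virus and Bred methods was tested directly. It was called for 2 of the 41 genes, Dnajb1 (log2 -1.81, SE 0.22, adjusted p = 0.00223) and Bag3 (log2 -1.05, SE 0.18, adjusted p = 0.0106), with 3.21% of all genes called. Both calls were kept in all 20 alternatives, including each liver left out in turn. Bag3 rose in Bred KO livers and fell in Virus KO livers, so that its KO groups overlapped at 39.9 to 50.3 and 45.7 to 53.9 FPKM. Of the nonmembers, Ddit4 (-3.96), Cebpb (-2.46) and Hspb8 (-1.35) were called in the same test, as were 7 of the 18 immediate early genes, all lower.

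Over both methods, KO against WT in DDC livers gave 2 of 41 calls, Dnajb1 (-0.71, SE 0.11, adjusted p = 0.00685) and Edem1 (-0.35, SE 0.08, adjusted p = 0.0266), both lower, with 6.41% of all genes called. For Dnajb1 this value averages over methods whose effects differed. Edem1 was at 45.8, 43.9 and 40.3 FPKM in Bred WT livers and at 39.4, 38.9 and 36.5 FPKM in Bred KO livers. In Virus WT livers it was at 53.3, 50.9 and 59.1 FPKM, and in Virus KO livers at 46.5, 44.2 and 48.5 FPKM. Edem1 was lower in KO livers within each method with no overlap, but its call was lost without Bred KO 3 or any one of the 6 Virus livers. Counts moved with single livers, with 8 of 41 called without Bred WT 3, beside 7.44% of all genes. The count was 1 without Bred KO 3, Virus WT 1, Virus WT 2, Virus KO 1 or Virus KO 2. Those fits called 2.12% to 3.6% of all genes. In sign 39 of the 41 genes were lower on the TMM scale, and 35 by mean FPKM. An unadjusted p below 0.05 was found for 16 of the 41 and for 25.4% of all genes. With the replicate number as a block 7 members were called, adding Dnaja1, Dnajb9, Dnajc3, Hspd1 and Hspe1, and 12.5% of all genes. Of the other pathway genes the disulfide isomerase P4hb (-0.35), Sec11c (-0.45) and the mitochondrial Hsp90 Trap1 (-0.26) were called lower and the stress hormone Gdf15 (0.99) higher.

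**Figure D4:**
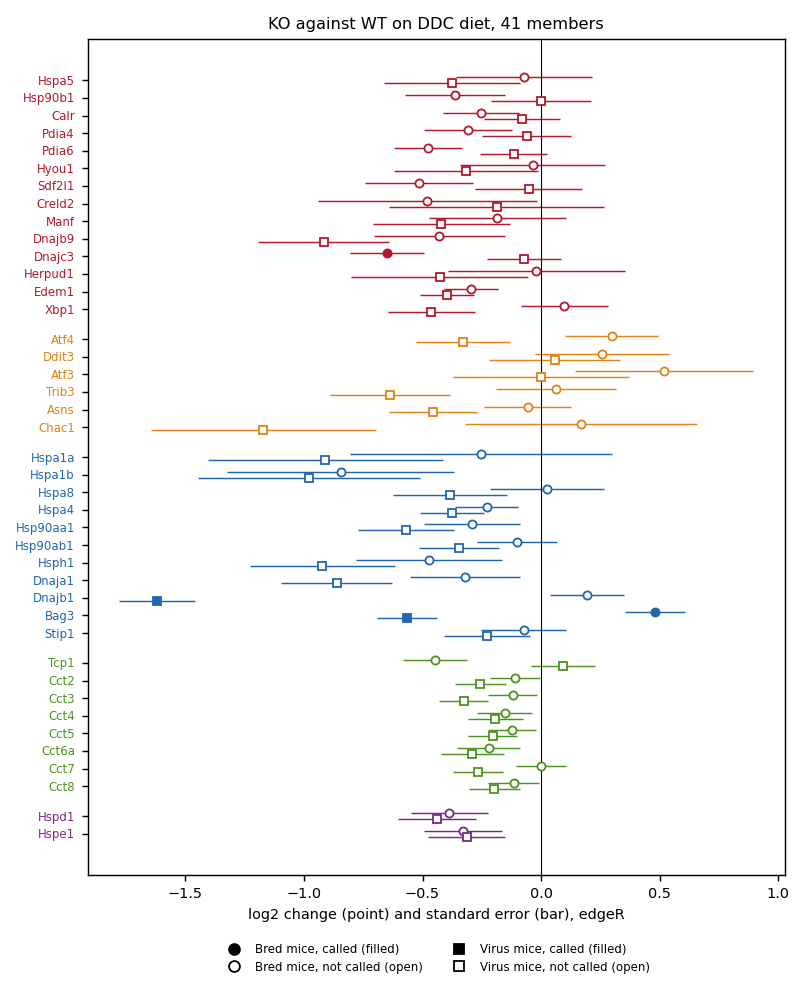
Log2 change of KO against WT DDC livers for each of the 41 genes on the horizontal axis, for the Bred and the Virus method, with bars for the standard error, genes grouped by list and filled symbols for an adjusted p below 0.05. Bag3 lies at 0.48 for Bred and -0.56 for Virus, and Dnajb1 at 0.19 and -1.62.

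Ranked by mean FPKM, the 4 DDC groups put Virus WT highest for 29 of the 41 genes, among them all 11 heat shock genes. The order by FPKM was the same as the order by normalized counts for 19 of the 41 genes. For Dnajb1 the means were 119 ± 12.9 (SD, n = 3) in Virus WT, 43.4 ± 2.65 in Virus KO, 24 ± 4.75 in Bred KO and 19.2 ± 3.95 in Bred WT, and only the Bred groups overlapped. For Hspa5 they were 814 ± 93.2 in Virus WT, 706 ± 303 in Virus KO, 330 ± 14.1 in Bred KO and 319 ± 112 in Bred WT, with overlap within each method.

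In the baseline experiment the calls lay between the materials. In WT mice 12 of the 41 genes were called between hepatocytes and whole liver, 11 higher and 1 lower in hepatocytes, while 25.4% of all 12507 genes tested were called, so that the share of 29.3% was near the background. The ER list had 7 of 14 genes called, all higher in hepatocytes, with a median log2 difference of 0.49 against -0.02 for all genes. Counts were moved by single libraries, falling to 6 without hepatocyte WT 1 and 7 without tissue WT 3, where 14.5% and 12.3% of all genes were called.

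Pdia4, Pdia6 and Dnajc3 had the smallest adjusted p among the ER genes in WT mice. In the same comparison of KO mice, edgeR called Pdia4 but not Pdia6 or Dnajc3. Pdia4 was at 76.2, 127, 74.8 and 108 FPKM in tissue WT and at 300, 174, 128 and 151 FPKM in hepatocyte WT libraries, with a log2 difference of 1.01 (SE 0.24, adjusted p = 0.00984). Pdia6 was at 190, 172, 165 and 172 FPKM in tissue WT and at 285, 224, 229 and 210 FPKM in hepatocyte WT libraries (0.48, SE 0.12, adjusted p = 0.00981). Dnajc3 was at 53.9, 57.1, 44.8 and 71 FPKM in tissue WT and at 102, 76.5, 76 and 68 FPKM in hepatocyte WT libraries (0.55, SE 0.13, adjusted p = 0.00892). Pdia4, Pdia6, Dnajc3 and Hsp90b1 were called under all 18 alternatives. In FPKM the Pdia4 and Pdia6 groups did not overlap, whereas hepatocyte WT 4 fell below tissue WT 4 for Dnajc3.

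Hspa5 was at 347, 430, 261 and 363 FPKM in tissue WT and at 774, 669, 511 and 342 FPKM in hepatocyte WT libraries. Hepatocyte WT 4 lay within the tissue range, and the log2 difference was 0.75 (SE 0.24, adjusted p = 0.034). The call of Hspa5 was lost without any of tissue WT 1, 3 and 4 and hepatocyte WT 1 and 2. Hyou1 (1.17), Hsp90b1 (0.97) and Calr (0.49) were also called higher on the log2 scale, and the calls of Hyou1 and Calr were lost without hepatocyte WT 1, that of Hyou1 also without tissue WT 3. Of 29 other ER genes 6 were called higher, among them the lectin chaperone Canx (0.63), the isomerase Pdia3 (0.65) and Ero1lb (0.71), and 3 lower.

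Among the cytosolic chaperones 3 of 11 were called. Hspa4 was at 24.5, 30, 26.8 and 31.1 FPKM in tissue WT and at 45.8, 37, 36.1 and 32.3 FPKM in hepatocyte WT libraries, without overlap (0.47, SE 0.13, adjusted p = 0.0144). Hsp90aa1 was at 29.9, 44.6, 41.3 and 50.7 FPKM in tissue WT and at 193, 49.5, 63.4 and 48.3 FPKM in hepatocyte WT libraries (1.13, SE 0.35, adjusted p = 0.0293). Hsp90ab1 was at 207, 329, 282 and 314 FPKM in tissue WT and at 622, 299, 349 and 339 FPKM in hepatocyte WT libraries (0.56, SE 0.19, adjusted p = 0.0408). Both Hsp90 differences leaned on hepatocyte WT 1, and their calls were lost without it (log2 differences of 0.43 and 0.28), without tissue WT 1 and without tissue WT 3, as was that of Hspa4 without hepatocyte WT 1. Hspa8 was at 126, 128, 145 and 143 FPKM in tissue WT and at 121, 104, 133 and 105 FPKM in hepatocyte WT libraries, which overlapped. Of 27 other heat shock genes, Hspa4l was called higher (0.90) and 2 were called lower, among them Cryab, a small heat shock protein of muscle and lens (-1.70).

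Atf3, a stress-induced transcription factor, gave the largest difference between hepatocytes and tissue. It was at 0.226, 0.438, 0.175 and 0.397 FPKM in tissue WT libraries, from 4 to 15 counts each, and at 4.75, 3.16, 8.13 and 1.77 FPKM in hepatocyte WT libraries. The groups did not overlap, and the log2 difference was 3.84 (SE 0.72, adjusted p = 0.00354). Trib3 was at 5.75, 8.48, 6.21 and 7 FPKM in tissue WT and at 1.71, 5.49, 2.86 and 6.56 FPKM in hepatocyte WT libraries. Ddit3 was at 2.31, 2.9, 3.94 and 5.09 FPKM in tissue WT and at 1.44, 3.49, 1.46 and 2.22 FPKM in hepatocyte WT libraries. Neither was called, with log2 differences of -0.68 (adjusted p = 0.156 and 0.17), and both overlapped between the materials. Of the 16 immediate early genes tested 13 were called higher in hepatocyte WT libraries, with sums of 418 to 571 FPKM against 94 to 162 FPKM in tissue WT. Hepatocytes had been perfused and separated on Percoll before RNA was taken, and the part of that step was not tested.

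TRiC gave no call between the materials, with 0 of 8 genes called by edgeR and 1 at an unadjusted p below 0.05. Such a p was found for 39.4% of all genes. Cct5 was at 107, 78.3, 118 and 73.5 FPKM in tissue WT and at 81.5, 65.5, 75.4 and 64.7 FPKM in hepatocyte WT libraries (-0.36, SE 0.15, adjusted p = 0.0906). Cct4 was at 35.3, 33.9, 41.1 and 36 FPKM in tissue WT and at 36, 32.5, 32.9 and 28.3 FPKM in hepatocyte WT libraries. Tcp1 was at 30.3, 31.4, 33.8 and 32 FPKM in tissue WT and at 32.8, 32.2, 33.9 and 31.2 FPKM in hepatocyte WT libraries. All 3 subunits overlapped between the materials, and Tcp1 hardly varied.

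Of the mitochondrial pair only Hspe1 was called. It was at 188, 99.8, 221 and 104 FPKM in tissue WT and at 104, 80.9, 83.8 and 92.9 FPKM in hepatocyte WT libraries (-0.74, SE 0.23, adjusted p = 0.0289). Tissue WT 2 and 4, the libraries with the opposite length trend, were the low tissue libraries, and with length trends removed the difference was -0.11. The call was also lost without any of tissue WT 1 and 3 and hepatocyte WT 2, 3 and 4. Hspd1 was at 127, 178, 164 and 196 FPKM in tissue WT and at 208, 171, 177 and 159 FPKM in hepatocyte WT libraries, which overlapped (0.16, adjusted p = 0.349).

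**Figure D5:**
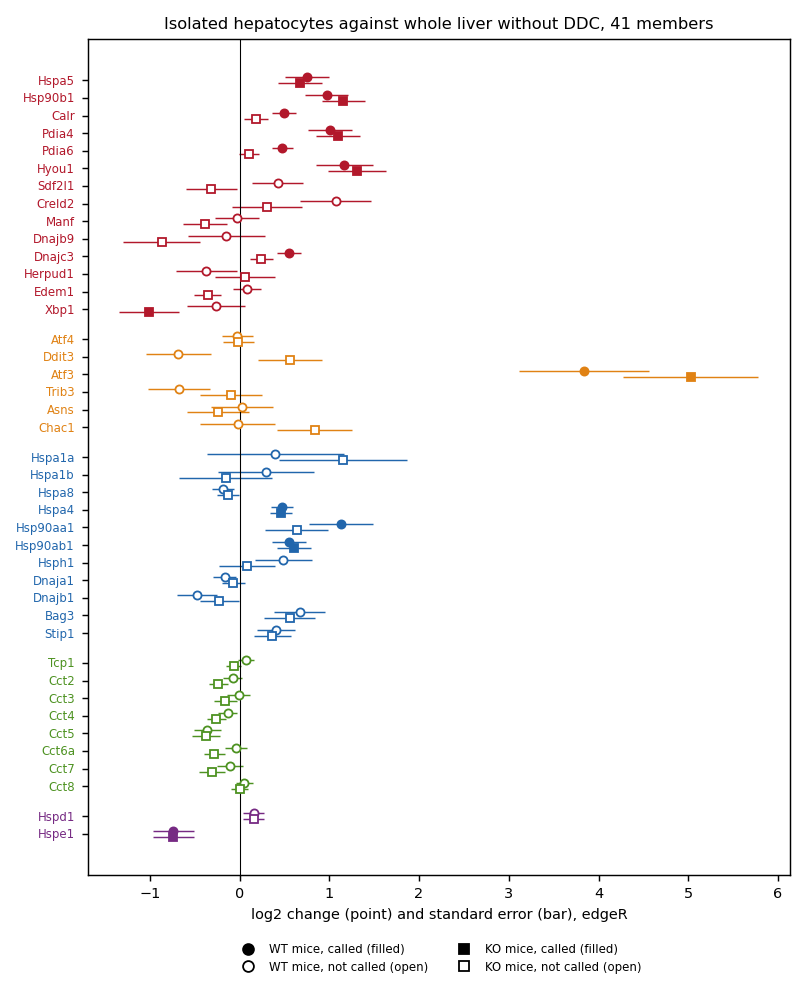
Log2 difference of hepatocytes against whole liver for each of the 41 genes on the horizontal axis, in WT and KO mice, with bars for the standard error, genes grouped by list and filled symbols for an adjusted p below 0.05. Atf3 lies farthest right, at 3.84 in WT and 5.03 in KO mice, and the TRiC subunits lie near 0.

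In KO mice 9 of the 41 genes were called between hepatocytes and tissue, 7 higher and 2 lower in hepatocytes, with 44.1% of all genes called. Atf3 (5.03), Hyou1 (1.31), Hsp90b1 (1.16), Pdia4 (1.10), Hsp90ab1 (0.61) and Hspa4 (0.46) were higher on the log2 scale and were called under all 17 alternatives. Hspa5 was at 294, 541, 378 and 394 FPKM in tissue KO and at 631, 608, 887 and 478 FPKM in hepatocyte KO libraries, with overlap (0.68, adjusted p = 0.0327). Its call was lost without any of tissue KO 1, 3 and 4 and hepatocyte KO 3. Xbp1 was lower in hepatocytes (-1.01, adjusted p = 0.0199). This call was lost with length trends removed and without tissue KO 2, hepatocyte KO 2 or hepatocyte KO 4. Hspe1 was lower by -0.74, and -0.04 with length trends removed. Immediate early genes moved here too, with sums of 273 to 981 FPKM in hepatocyte KO and 99.2 to 125 FPKM in tissue KO libraries, and their part was not tested.

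Deletion of Ptk2 at baseline, compared over the libraries already used between the materials, gave no call by edgeR among the 41 genes in either material. In tissue, 0 of 41 were called by edgeR, with 0.008% of all genes called. An unadjusted p below 0.05 was found for 7 of the 41 and for 16.1% of all genes. The median log2 change was 0.19 against -0.01 for all genes. DESeq2 and limma also called 0 of the 41, and without tissue WT 1 edgeR called 1, Manf, in a fit that called 7.83% of all genes. In hepatocytes 0 of 41 were called by edgeR, with 0.32% of all genes called and a median of 0.08. An unadjusted p below 0.05 was found for 4 of the 41 and for 8.95% of all genes. DESeq2 called 1 there, Hspa8, with 1.3% of all genes called, and limma called 0.

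Hspa8 came closest in both materials. It was at 178, 191, 169 and 179 FPKM in tissue KO libraries, above the 126 to 145 FPKM of tissue WT in every case (exact permutation p = 0.0286, the smallest that 4 against 4 allows). In hepatocyte KO libraries it was at 152, 145, 193 and 175 FPKM, above the 104 to 133 FPKM of hepatocyte WT in every case (exact permutation p = 0.0286). The log2 change was 0.40 (SE 0.12, adjusted p = 0.185) in tissue and 0.45 (SE 0.12, adjusted p = 0.176) in hepatocytes. Hspa8 was picked from 41 genes, and its permutation p-values are not adjusted for this. Other members were also apart in FPKM. Cct2 was at 64.1 to 66.4 FPKM in tissue KO and 50.9 to 58.9 in tissue WT. Dnaja1 was at 51.3 to 63.4 FPKM in hepatocyte KO and 36.4 to 46.5 in hepatocyte WT, and Dnajb1 at 13.2 to 19.7 and 8.78 to 12.7. The share of all genes apart in this way was not counted. Over both materials 0 of 41 were called by edgeR, with 0.0253% of all genes called. This fit held genotype alone, so the difference between the materials entered its spread. DESeq2, also by genotype alone, called 2, Hspa8 and Dnaja1, with 0.346% of all genes. By edgeR 6 of the 41 had an unadjusted p below 0.05, beside 5.94% of all genes. With the material as a term edgeR called 0.202% of all genes and no member. The genotype effect did not pass the test of a difference between the materials for any member, with 0.0% of all genes called. In that test 2 members had an unadjusted p below 0.05, beside 8.01% of all genes.

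No ER or ATF4 member passed edgeR's test at baseline with every library kept. Creld2 of the ER list was at 45.8, 73.5, 45 and 45.5 FPKM in tissue KO libraries. In tissue WT libraries Creld2 was at 30.6, 28, 17.9 and 32.2 FPKM, without overlap in FPKM, whereas it overlapped between the hepatocyte groups. Hspa5 overlapped the WT range in tissue KO libraries (log2 change 0.20, adjusted p = 0.71) and in hepatocyte KO libraries (0.12, adjusted p = 0.933). Ddit3 was at 3.82, 2.98, 2.39 and 1.61 FPKM in tissue KO libraries (-0.39, adjusted p = 0.605). In hepatocyte KO libraries Ddit3 was at 2.28, 5.28, 3.73 and 4.99 FPKM (0.86, SE 0.36, adjusted p = 0.489). It overlapped the WT group in both materials. Of the other pathway genes 0 of 29 ER, 0 of 22 ATF4 and 0 of 27 heat shock genes were called by edgeR in either material. At an unadjusted p below 0.05 these were 9, 0 and 6 in tissue and 1, 3 and 2 in hepatocytes. The shares of all genes at this level were 16.1% in tissue and 8.95% in hepatocytes.

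The levels of baseline and DDC whole livers are set side by side without a test. Bag3 was at 6.13 to 16.6 FPKM in the 8 baseline tissue libraries and at 27.9 to 74.6 FPKM in the 12 DDC libraries. Dnajb1 was at 12.3 to 27 FPKM in baseline tissue, like the 16.3 to 26.8 FPKM of the Bred DDC livers and below the 40.3 to 133 FPKM of the Virus DDC livers. Atf3 was at 0.164 to 0.438 FPKM in baseline tissue and at 5.77 to 22 FPKM in DDC livers. Chac1 was low and its ranges overlapped, at 0.915 to 3.45 FPKM in baseline tissue and 0.289 to 2.06 FPKM in DDC livers. Since no DDC library came from the baseline cohort, diet, cohort and table cannot be told apart.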

How the data were processed

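RNA from 28 mouse liver and hepatocyte samples was sequenced after rRNA removal with a directional kit. Per the labels and the methods of the study, the authors aligned reads to mm10 with STAR and deposited raw counts per gene from HTSeq 0.6.1 and FPKM values, with the strand setting and annotation not given in the sources used here. The deposited FPKM and those rebuilt here from counts and gene length differed by at most 4.98e-10 percent.

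Counts were fitted with edgeR 4.0.16 (R 4.3.3) by the quasi-likelihood test with TMM factors, with 1 fit of 4 groups per experiment. A separate fit of the baseline libraries by genotype alone gave KO against WT over both materials, with 11857 genes tested. Genes passed filterByExpr (minimum count 10, minimum total 15), which left 12507 and 13955 genes, and the Benjamini-Hochberg adjustment ran over all of them with a threshold of 0.05. With 11162678 to 20428773 counts per library, precision was set mainly by the few mice per group. No source used here states outright that replicates were separate animals, so p-values measure the spread between these samples. Groups are called apart on TMM-normalized CPM. The exact permutation test (two-sided) used log2(CPM + 1) and cannot go below 0.0286 for 4 against 4 or 0.1 for 3 against 3. In simulated counts the fit called 8 of 67 genes changed 1.5-fold and 37 of 65 changed 2-fold for tissue KO against WT. For Bred KO against WT it called 4 of 66 and 32 of 66. Changes of these sizes can thus go uncalled.

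Bred WT and Bred KO livers of the same number deviated together (correlations 0.247 to 0.306, against -0.201 to -0.0721 for other numbers), a hint from the data for paired littermates, and no other groups did in every pair. Alternatives were DESeq2 1.42.0, its size factors, no filter, limma 3.58.1 on log2(FPKM + 1) and log2(FPKM + 0.1), removal of length trends (spline with 5 degrees of freedom), the replicate number as a block, the 2 groups alone and each library left out. The fit over both materials was also run with the material as a term.

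The 41 members and all lists were chosen with earlier results of these data known. All members were counted. Values per sample are given for members called between KO and WT (at most 4 per list), the 3 members of each list with the smallest adjusted p between hepatocytes and tissue in WT, the 2 with the smallest between Virus WT and Bred WT, and Hspa5, Ddit3 and Hspa8, with up to 3 other pathway genes per list and comparison by the same measure. Further members were described after their values were seen. Promoters came from RefSeq (GRCm38.p6).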

Additional observations from a re-analysis of the deposited data

Results flagged for a closer look

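In 14 of 164 groups of 4 baseline libraries, a single library stood apart from the other 3 by more than Dixon's critical share of the group's range, where chance gives about 1 in 20. Of these, 4 were in hepatocyte WT 1, where Hsp90b1 was at 397 FPKM, Hsp90aa1 at 193, Hsp90ab1 at 622 and Stip1 at 76.4, all above the others. Hepatocyte KO 1 was high for Calr at 623 FPKM, Atf3 at 21.3, Hsp90ab1 at 549 and Cct3 at 37.3. Tissue KO 2 was high for Creld2 at 73.5 FPKM, Dnajb9 at 135, Herpud1 at 365 and Hspa1b at 21.7. Dnajb9 was high in tissue WT 1 at 72.1 FPKM, and Cct4 was low in hepatocyte KO 2 at 31.6 FPKM.

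The genotype effect differed between the Virus and Bred methods in the test of the difference itself for Dnajb1 (log2 -1.81) and Bag3 (log2 -1.05). For Dnajb1 the 3 Virus WT livers were high, and for Bag3 the effects had opposite signs.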

How the results depend on the processing

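The difference of the genotype effects between methods gave 2 called members, Dnajb1 and Bag3, under all 20 alternatives. Virus WT against Bred WT gave 19 to 27 called members with 1 liver left out and 22 to 30 otherwise, and 16 members were called throughout. The other comparisons between KO and WT were less stable. With 1 library left out, called members were 0 to 1 in tissue, 0 to 0 in hepatocytes, 0 to 3 for Bred, 1 to 3 for Virus, 1 to 8 over both methods, 6 to 13 and 8 to 12 for hepatocytes against tissue in WT and in KO, and 3 to 14 for Virus KO against Bred KO, a comparison chosen after seeing the data. These fits hold fewer samples, and the share of all genes called moved in them as well.

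With DESeq2 the counts were 1 for hepatocyte KO, 2 for KO over both materials, 4 for Bred, 7 for Virus, 11 over both methods and 23 for Virus KO against Bred KO, where it called 1.3%, 0.346%, 12.1%, 6.64%, 12.8% and 8.11% of all genes. Its size factors in edgeR gave 4 over both methods, with 6.49% of all genes called. Without a filter there were 1 for Bred, 4 for Virus and 6 over both methods, beside 4.82%, 2.47% and 4.78% of all genes. Limma gave 1 in each of these with either pseudocount, beside 6.66% to 7.24%, 3.81% to 4.11% and 11.9% to 12.2% of all genes. Removal of length trends gave 16 for hepatocytes against tissue in KO, 5 for Virus and 8 over both methods. The shares of all genes called there were 38.2%, 3.11% and 8.13%. The replicate block gave 3 for Bred, 3 for Virus and 7 over both methods. The share of all genes called rose with the block too, to 12.4% for Bred, 4.85% for Virus and 12.5% over both methods. With length trends removed as well the block gave 14 for hepatocytes against tissue in KO, 5 for Bred and 5 for Virus. It then gave 11 over both methods and 7 for Virus KO against Bred KO. In the same order, these fits called 34.7%, 14.3%, 6.03%, 15.8% and 0.573% of all genes. The fit of the 2 groups alone gave 0 for Bred and 8 for Virus, with 0.0% and 9.72% of all genes called, so that the 0 is not particular to the members. The cause of these shifts was not tested. Under the block the other counts were 9 and 11 for hepatocytes against tissue in WT and KO, 24 for Virus WT against Bred WT and 9 for Virus KO against Bred KO. Beside them 18.3%, 40.6%, 10.4% and 0.803% of all genes were called.

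Of 1476 alternatives of single member values, 1274 kept direction and call, 164 lost the call, 35 gained it and 3 reversed. The reversals were all of Herpud1 in Virus WT against Bred WT. It was at -0.027 with the block and length trends removed, -0.19 without Bred WT 1 and -0.29 without Virus WT 1. Over the alternatives its value ran from -0.29 to 0.39. Low counts limit Atf3 in baseline tissue, at 4 to 15 per library.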
